A study of Mus musculus with 816 samples.

Results

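The scavenger receptors studied here were 8 genes, Msr1, Marco, Cd68, Scarb1, Olr1, Stab1, Cd163 and Mertk, chosen by name and taken from every condition of 784 cultures of mouse microglia and from 32 mice. They are 8 of 45581 genes listed for the cultures and of 29858 listed for the mice, and all of them are listed in both. The cultures were purchased primary microglia from newborn mouse brain, kept in multi-well plates, left untreated or given 1 stimulus or a mix, and collected after 4 h (63 cultures), 24 h (418) or 72 h (303). The stimuli used below were LPS at 0.0001 ug/ul (called LPS) or 0.00001 ug/ul (low-dose LPS), P3C (the lipopeptide Pam3Cys-Ser-(Lys)4, 0.001 ug/ul), polyIC (a mimic of double-stranded RNA, 0.2 ug/ul), TNFa (0.000004 ug/ul), IFNg and IFNb (0.0001 ug/ul each), IFNa (0.0008 ug/ul), IL4 (0.00005 ug/ul), TGFb (0.0001 ug/ul), GMCSF (GM-CSF, 0.000005 ug/ul), PGE2 (prostaglandin E2, 0.001 ug/ul), IL10 and IL13 (0.00005 ug/ul each) and s100B (0.00003 ug/ul). Small molecules were ATP, nicotine and Valproic Acid (1000 uM each), GABA, dopamine and MPP (100 uM each), the fatty acids (150 uM each), resveratrol (50 uM) and norepinephrine (1 uM), beside further agents for which counts alone are given. The mice were C57BL/6 animals: females of 2 months given LPS (2 mg/kg, 4 mice) or the vehicle PBS (4 mice) by intraperitoneal injection 4 h before collection, and naive males of 2 months (11 mice) and 22 months (13 mice). The males are called naive because their sample annotation uses that word. The names attached to the deposited values include the word Vehicle for the females of both groups and for some of the males. Whether it refers to a further treatment is not stated. Their microglia were isolated from perfused brain with a Percoll step and CD11b magnetic beads, which also retain other myeloid cells. Nothing in the labels says that wells of a condition came from separate animals, so p-values in culture measure the spread between wells, which may be technical. That spread can include differences between culture plates, library pools and cell lots, which were not terms in the main fit.

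Scavenger receptors are surface or lysosomal proteins of macrophages that bind modified lipoproteins, microbial surfaces, dying cells and other debris, and most of them take their cargo up for degradation. Msr1 (SR-A1) and Marco are class A receptors with collagenous stalks. Cd68 is a heavily glycosylated lysosomal protein of macrophages. Scarb1 binds high-density lipoprotein and moves cholesteryl ester, and Olr1 (LOX-1) is a C-type lectin-like receptor for oxidised low-density lipoprotein. Stab1 (stabilin-1) clears extracellular ligands and traffics to endosomes, Cd163 binds haemoglobin-haptoglobin complexes and marks perivascular macrophages in the brain, and Mertk is a receptor tyrosine kinase through which phagocytes engulf apoptotic cells by way of Gas6 and Pros1.

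The genes lie on 7 chromosomes of GRCm38. Msr1 (ENSMUSG00000025044) is at chromosome 8, 39581685 to 39642673, Marco at chromosome 1, 120474538 to 120505024, and Cd68 at chromosome 11, 69664213 to 69666153. Scarb1 is at chromosome 5, 125277087 to 125341094, Olr1 at chromosome 6, 129485244 to 129507165, and Stab1 at chromosome 14, 31139013 to 31168641. Cd163 is at chromosome 6, 124304656 to 124330527, and Mertk at chromosome 2, 128698956 to 128802894. Scarb1 overlaps Gm42633 on its own strand, Stab1 overlaps Nt5dc2 on the opposite strand, and Mertk overlaps the antisense gene Gm14011, so reads of these 3 genes may be shared with a neighbour.

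RefSeq promoter windows (GRCm38.p6, 250 bases before and 50 after the annotated start) were found for 6 of the 8 genes, and not for Msr1 and Scarb1. Those of Marco, Olr1 and Cd68 are shown as a receptor that was higher with LPS and P3C, 1 that was highest at 4 h and 1 that was lower with LPS and P3C. Capitals mark matches to an NF-kB motif (GGGNNNNNCC) in Marco and to an AP-1 motif (TGANTCA) in Olr1 and Cd68, searched on both strands. The windows are at chr1:120504975-120505274 for Marco, chr6:129507116-129507415 for Olr1 and chr11:69666121-69666420 for Cd68, all on the minus strand.
Marco: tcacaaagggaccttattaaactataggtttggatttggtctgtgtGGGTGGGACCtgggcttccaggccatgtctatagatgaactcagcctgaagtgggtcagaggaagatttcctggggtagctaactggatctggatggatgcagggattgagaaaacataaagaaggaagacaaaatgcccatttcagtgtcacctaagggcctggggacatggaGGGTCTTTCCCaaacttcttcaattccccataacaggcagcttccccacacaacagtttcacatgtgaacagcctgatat
Olr1: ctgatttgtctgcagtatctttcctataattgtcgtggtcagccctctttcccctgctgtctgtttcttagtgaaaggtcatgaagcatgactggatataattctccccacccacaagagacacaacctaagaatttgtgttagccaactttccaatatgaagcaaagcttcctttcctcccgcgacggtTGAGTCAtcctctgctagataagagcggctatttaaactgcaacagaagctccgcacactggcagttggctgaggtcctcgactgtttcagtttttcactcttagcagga
Cd68: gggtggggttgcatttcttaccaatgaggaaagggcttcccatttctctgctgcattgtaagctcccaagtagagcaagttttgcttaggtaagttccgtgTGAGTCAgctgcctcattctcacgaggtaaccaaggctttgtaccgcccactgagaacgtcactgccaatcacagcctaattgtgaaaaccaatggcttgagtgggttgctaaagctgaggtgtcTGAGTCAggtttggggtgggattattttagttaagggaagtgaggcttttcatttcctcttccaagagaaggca
The Marco window holds NF-kB matches that begin 204 and 30 bases before the start, the latter overlapped by a match on the other strand at 29. The Cd68 window holds AP-1 matches 149 and 24 bases before the start, and the Olr1 window holds 1 at 60. Among 32851 promoter windows of the same length, 50.8% held the NF-kB motif and 7.81% the AP-1 motif. The Cd163 and Mertk windows held the NF-kB motif as well, and the Stab1 window held neither. An interferon response element core (in 3.44% of windows) and a GAS motif (TTCNNNGAA, in 8.3%) matched none of the 6. These matches are descriptions of letters and say nothing of binding.

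Depth was estimated by taking the most common value above 0 of a library as 1 read. The estimates ranged from 1.00 to 38.2 M mapped reads (M for 1e6) in the cultures and from 2.36 to 7.78 M in the mice, so 1 CPM (1 read per 1e6 mapped reads) rests on a few reads. Msr1, Cd68 and Stab1 were above 5 CPM in every culture, Marco, Scarb1 and Mertk in most, Olr1 in 35 of 63 cultures at 4 h, 29 of 418 at 24 h and 8 of 303 at 72 h, and Cd163 in 0, 1 and 4 of them. The labelled cell type was checked with 9 microglial markers. Untreated cultures at 24 h held Cx3cr1 at 366 CPM, but the defining markers Tmem119, P2ry12 and Sall1 were at 19.3, 4.51 and 0.969 CPM there and at 4692, 814 and 272 CPM in mice given PBS, so the cultures lacked most of the defining marker signal of microglia in the animal. The 9 markers summed to 3596 to 9512 CPM in untreated cultures at 24 h and to 846 to 2698 CPM with LPS. The summed markers of perivascular macrophages (7 genes, Lyve1 and Cd209f under 1 CPM) were 215 to 999 untreated and 191 to 911 with LPS, those of monocytes (5 genes) 7.15 to 87.2 and 2.52 to 35.3, and those of neutrophils (6 genes) 0 to 9.18 and 0 to 20.1. In bulk RNA, fewer cells of a type and less RNA per cell cannot be told apart, and the part of such markers in the culture results was not tested.

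A pair of culture groups stood apart. The 3 cultures given TNFa for 72 h had the lowest correlation with other cultures of their own condition (r of 0.617 to 0.627 over 8520 genes, median over 783 cultures 0.905), and they lay in 1 library pool of 26 cultures that held 0 untreated wells. In polyIC at 24 h, 1 of 8 cultures had 1789.6 CPM of Marco against 45.6 to 271 in the other 7, 593 CPM of Cd68 against 1952 to 3026, and 4.25 CPM of Olr1 against at most 0.624. Without that culture all 57 calls at 24 h were kept, and 2 were added.

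Each condition was compared with untreated cultures of its time, and all comparisons of a time share those cultures. A gene was called when limma gave an adjusted p under 0.05 over all genes and the difference of mean log2(CPM + 1) reached 1.5-fold. At 24 h, 57 of 266 pairs of a stimulus and a receptor were called (21.4%, 15 higher and 42 lower, in 21 of 38 stimuli), where 6.94% of all genes tested were called. At 72 h, 61 of 256 pairs were called (23.8%, 28 higher and 33 lower, in 21 of 32 stimuli and mixes), against 5.31% of all genes. At 4 h, 26 of 63 pairs were called (41.3%, 15 higher and 11 lower), against 19.4% of all genes, with no untreated 4 h culture, so that these were compared with untreated cultures at 24 h and time and stimulus cannot be told apart in that contrast. Against the mean of the 4 h conditions without LPS, which had received other agents, 16 of the 19 calls of LPS conditions at 4 h were kept, and 17 of 19 with culture plate in the fit. The share of receptor pairs called was above that of all genes in each of the 3 sets, and the direction differed by gene. These shares are descriptions, since the receptors were chosen with earlier results of these data known and the pairs share untreated cultures. Olr1 and Cd163 stayed under 5 CPM in untreated cultures and passed the filter on low values through treated cultures where they were high, so their calls are conditioned on a rise. Without both genes the calls were 53 of 228 pairs (23.2%) at 24 h, 55 of 192 pairs (28.6%) at 72 h and 22 of 54 pairs (40.7%) at 4 h. At 24 h Marco was called higher with 5 stimuli and lower with 10, Stab1 lower with 15, Scarb1 lower with 7, Cd68 lower with 6 and Msr1 higher with 5 and lower with 1. Olr1 was called higher with 4, and Mertk higher with 1 and lower with 3.

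**Figure D1:**
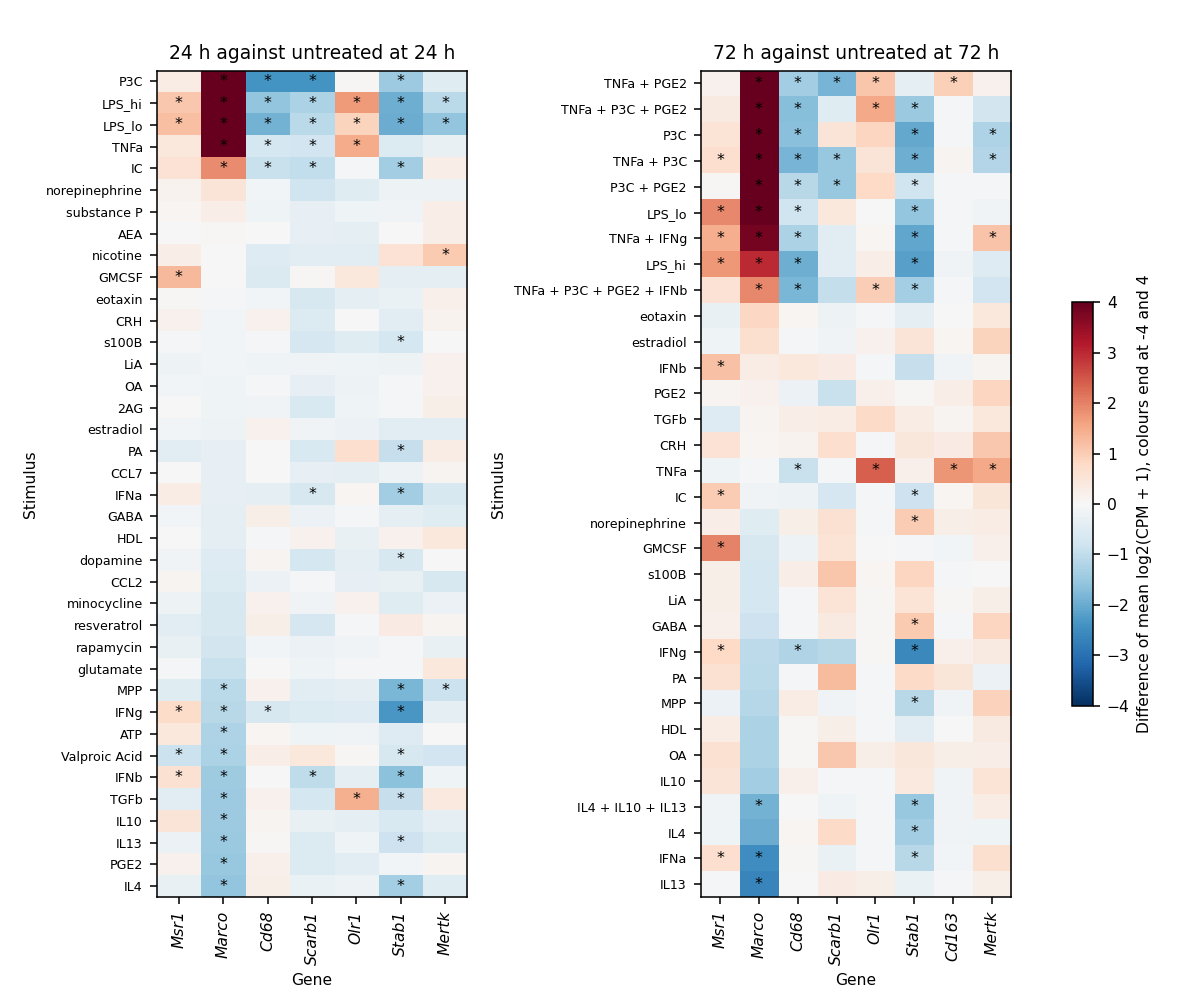
Differences of mean log2(CPM + 1) from untreated cultures of the same time, with stimuli in rows and receptors in columns, at 24 h and 72 h; colours end at 4 in either direction and an asterisk marks a called pair. Marco carries the largest rises, reaching 5.88 with P3C at 24 h and 6.12 with TNFa and PGE2 at 72 h, and Stab1 has the most lower calls.

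Scaling each sample by a trimmed mean of log ratios left 149 of 163 called pairs called and turned the direction of 0. It moved the median of all genes upward by more than 0.1 (log2) with LPS at 24 h (from -0.21 to -0.06), low-dose LPS at 24 h (-0.27 to -0.12), P3C at 24 h (-0.40 to -0.12), polyIC at 24 h (-0.19 to 0.01), LPS at 72 h (-0.24 to -0.11), TNFa at 72 h (-0.28 to -0.02), LPS at 4 h (-0.65 to -0.20) and LPS in mice (-0.19 to -0.02), so the lower values below in these conditions stand against such medians. It raised the share of called genes that were higher from 28.4% to 44.6% with LPS at 24 h, from 17.2% to 42.9% with P3C, from 17.9% to 43.4% with LPS at 4 h and from 42.8% to 68.3% in the mice. With TNFa at 24 h that share moved from 37.4% to 51.9%, with polyIC from 25.6% to 51.2%, with IFNb from 37.7% to 50.7%, with IL4 from 71.4% to 57.8%, with low-dose LPS at 24 h from 26.4% to 42.5% and with LPS at 72 h from 25.5% to 45.2%. It moved from 43.1% to 66.1% with TNFa at 72 h, from 48.9% to 60.6% with TNFa, P3C and PGE2, from 41.3% to 52.1% when the 3 interleukins were added to low-dose LPS, and from 21.4% to 32.3% for untreated cultures at 72 h against 24 h.

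With LPS for 24 h, all 7 receptors tested were called, 3 higher (Marco, Olr1 and Msr1) and 4 lower (Cd68, Stab1, Scarb1 and Mertk), with 34.7% of all genes called and a median log2 of -1.08 for the receptors and -0.21 for all genes. Low-dose LPS gave the same 3 and 4 among 7, with 27.8% of all genes called. P3C gave 1 higher (Marco) and 3 lower (Cd68, Scarb1 and Stab1), with 35.3% of genes called. TNFa gave 2 higher (Marco and Olr1) and 2 lower (Cd68 and Scarb1), with 7.49% called, and polyIC 1 higher (Marco) and 3 lower (Cd68, Scarb1 and Stab1), with 20.4% called. LPS for 4 h gave 3 higher (Marco, Olr1 and Mertk) and 2 lower (Stab1 and Scarb1) of 7, with 48.2% of all genes called. IFNb gave 1 higher (Msr1) and 3 lower (Marco, Scarb1 and Stab1, with 17.2% of all genes called), IFNg 1 higher (Msr1) and 3 lower (Cd68, Marco and Stab1, 17.8%), and IL4 2 lower (Marco and Stab1, 7.54%).

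Msr1, the class A receptor SR-A1, was at 571 ± 95.9 CPM (SD, n = 40; 279 lowest, 587 median, 713 highest) in untreated cultures at 24 h. With LPS it ranged from 902 to 1641 CPM (median 1228, n = 18), and with GMCSF from 1094 to 1515 (median 1452, n = 8). No LPS or GMCSF culture overlapped the untreated ones. The means were 1215 ± 203 CPM with LPS (2.13-fold, log2 1.09, adjusted p = 5.7e-31) and 1402 ± 141 with GMCSF (log2 1.31, adjusted p = 2.9e-23), the latter the highest mean among the conditions. With IFNg, Msr1 was at 942 ± 75 CPM (log2 0.74, adjusted p = 1.4e-09) and with IFNb at 870.0 ± 140.3 (log2 0.61). The IFNb value fell to 0.58 with culture plate in the fit, under 1.5-fold. In Valproic Acid cultures Msr1 ranged from 249 to 451 CPM (median 266, n = 6, log2 -0.87, adjusted p = 1.3e-08), a call lost with plate in the fit (adjusted p = 0.061).

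At 72 h untreated Msr1 was lower, at 325 ± 78.2 CPM (134 to 462, n = 25), and the same agents were higher against it. GMCSF cultures ranged from 982 to 1570.3 CPM (median 1178, n = 7, log2 1.99, adjusted p = 1.9e-17) and LPS cultures from 738 to 1246 (median 1085, n = 13, log2 1.73, adjusted p = 4.4e-21). Low-dose LPS gave 1208 ± 199 CPM (log2 1.92), TNFa with IFNg 879 ± 208 (log2 1.45) and IFNb 710.2 ± 36.1 (log2 1.17, n = 4). In all, 9 conditions were called higher and 0 lower at 72 h. At 4 h LPS left it at 715 ± 118 CPM, which was not called. Over the 9 conditions at 4 h Cd68 and Msr1 were called 0 times by limma with the 1.5-fold minimum, while 8 of these 18 pairs had an unadjusted p under 0.05.

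Marco, the other class A receptor and a marker of inflammatory macrophages, had the widest range of the group. In untreated cultures at 24 h it was 9.13 to 149 CPM (median 39.5, n = 40; mean 52.4 ± 36.4). LPS cultures ranged from 394 to 2887 CPM (median 1436, n = 18), P3C cultures from 664 to 4608 (median 3105, n = 6) and TNFa cultures from 559.5 to 1159 (median 752, n = 7). All of these lay above every untreated culture. P3C raised the mean to 2970.4 ± 1590.0 CPM (58.8-fold, log2 5.88, adjusted p = 1e-33), LPS to 1372 ± 696 (27.7-fold, log2 4.79, adjusted p = 3e-49) and TNFa to 785 ± 218 (18-fold, log2 4.17, adjusted p = 3.2e-20). Low-dose LPS reached 1075 ± 799.9 CPM (log2 4.30). PolyIC cultures had a median of 136 CPM (log2 1.89, adjusted p = 1.1e-05), with 1 culture at 1789.6.

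The agents with a lower Marco at 24 h were IL4, IL13, IL10, TGFb, PGE2, IFNb, IFNg, ATP, Valproic Acid and MPP. IL4, a cytokine of alternative activation, left 14.7 ± 5.91 CPM (log2 -1.58, adjusted p = 0.00013) and TGFb 15.5 CPM (log2 -1.44), and both means lay inside the range of untreated cultures. Of these 10 calls, ATP, IFNg, MPP and PGE2 were lost without cultures under 2 M mapped reads, ATP and MPP also with library pool in the fit.

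At 4 h, LPS cultures held 223 to 447 CPM of Marco (median 307, n = 7; 324 ± 72.3, log2 2.91, adjusted p = 8.9e-15), above all untreated cultures at 24 h. LPS with nicotine gave log2 3.26, with norepinephrine 2.76 and with ATP 2.09. Nicotine, norepinephrine and ATP alone gave 118, 103 and 101 CPM (log2 1.43, 1.27 and 1.24), and these 3 calls were lost with plate in the fit (log2 0.45, 0.28 and 0.22, adjusted p = 0.36, 0.53 and 0.67).

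At 72 h the highest Marco was with TNFa and PGE2, and with TNFa, P3C and PGE2. The 8 cultures given TNFa with PGE2 held 311, 1152, 2294, 2585, 2612, 3440.2, 4624 and 4914 CPM, against 4.45 to 86 (median 33.9, n = 25) untreated, with no overlap (69.6-fold, log2 6.12, adjusted p = 9.6e-33). TNFa with P3C and PGE2 gave 2277 ± 908 CPM (1241 to 3193, n = 7, log2 6.10), and that mix had 2 receptors higher (Marco and Olr1) and 2 lower (Cd68 and Stab1) of 8, with 8.39% of all genes called. Olr1 was at 45.9 CPM in 1 culture of that mix and at 0 to 3.58 in the others. How far its call rests on that culture was not tested. P3C alone held Marco at 1133 ± 101 CPM (log2 5.20) and TNFa with P3C held it at 1133 ± 368 (log2 5.14). P3C with PGE2 held 17.9 CPM in 1 culture and 901 to 1251 in the others. TNFa alone was unlike its mixes: the 3 cultures held 22.7, 31.4 and 33.5 CPM, inside the untreated range (log2 -0.04, 95% interval -1.28 to 1.20, adjusted p = 0.98). In TNFa cultures at 72 h, 23.1% of all genes were called, 3 receptors higher (Olr1, Cd163 and Mertk) and 1 lower (Cd68), but those 3 cultures stood apart as above. The Cd68 call was lost without replicate 1 or 2 (adjusted p = 0.17 and 0.092) and the Mertk call without replicate 1 (0.075).

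LPS held Marco at 58.1 to 580.2 CPM at 72 h (median 295, n = 13, log2 2.98, adjusted p = 1.9e-13) with 18.3% of all genes called and 2 receptors higher (Marco and Msr1) and 2 lower (Cd68 and Stab1) of 8. Low-dose LPS held it at 393 to 709 CPM (median 579, n = 11, log2 4.20, adjusted p = 1.4e-21), with 8.23% of all genes called and the same 2 higher and 2 lower. The low-dose cultures all lay above the highest untreated culture, while the LPS cultures overlapped it. Lower at 72 h were IFNa at 0.748 to 12.7 CPM (median 6.09, n = 7, log2 -2.47, adjusted p = 5.4e-06), IL13 at 7.94 ± 8.96 (log2 -2.64) and the mix of IL4, IL10 and IL13 at 9.45 ± 6.49 (log2 -1.90).

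**Figure D2:**
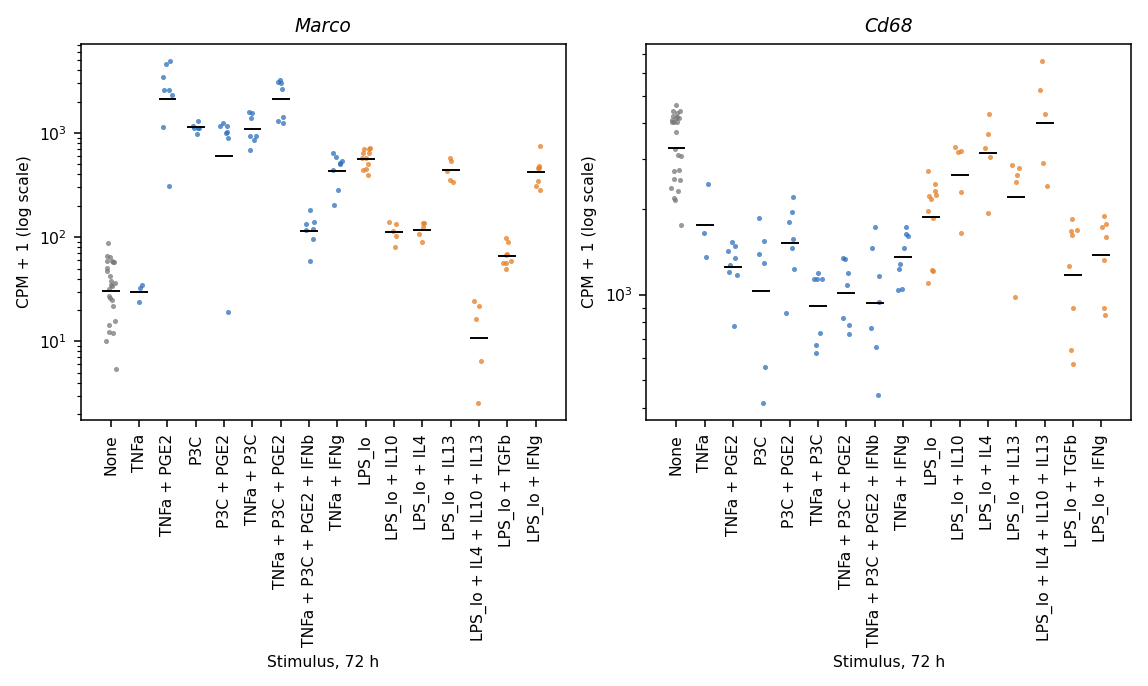
Marco and Cd68 in 16 conditions at 72 h, on a log axis of CPM + 1; points are cultures and bars are means of log2 values. Marco runs from 1.54 to 23.2 CPM in low-dose LPS with IL4, IL10 and IL13 up to 4914 CPM in TNFa with PGE2, and its 3 TNFa cultures sit among the untreated ones.

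Agents added to LPS, or IFNb added to the mix of TNFa, P3C and PGE2, were compared with the same treatment without them. They gave 13 calls in 151 pairs (8.61%, 4 higher and 9 lower, in 7 of 20 additions), against 1.3% of all genes tested. Olr1 made up 2 of the 4 higher calls, both against low-dose LPS at 72 h. It was at 1.49 to 13.6 CPM with IL4 added and at 0 to 9.42 CPM with TGFb added. Both calls are conditioned on a rise, as stated above for Olr1 and Cd163. Without these genes there were 11 calls in 120 pairs (9.17%). Marco made up 5 of the 9 lower calls. In the 5 cultures of low-dose LPS with IL4, IL10 and IL13 for 72 h it was at 1.54, 5.54, 15.4, 20.8 and 23.2 CPM, against 393 to 709 with low-dose LPS alone (52.6-fold lower, log2 -5.72, adjusted p = 9.3e-18). In that addition 1 receptor was higher (Cd68) and 2 lower (Marco and Msr1) of 8, where 3.72% of all genes were called. TGFb left 48.5 to 96.1 CPM (median 61.9, n = 8, log2 -3.09, adjusted p = 3.8e-07), IL4 alone 88.6, 107, 125, 135 and 136 (log2 -2.26, adjusted p = 0.0084) and IL10 alone 79.5, 102, 113, 134 and 138 (log2 -2.34, adjusted p = 0.0093). None of these groups overlapped low-dose LPS alone. The IL10 call was lost without replicate 4 or 5 (adjusted p = 0.074 and 0.052). IL13 alone left 338 to 569 CPM (log2 -0.37, adjusted p = 1). IFNb brought the mix from 2277 to 120.1 ± 38.7 CPM (58.1 to 183, n = 7; 18.3-fold lower, log2 -4.19, adjusted p = 2.6e-10), with no overlap.

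For Msr1 resveratrol was the strongest addition. At 24 h low-dose LPS with resveratrol held 199.5 to 819 CPM (median 456, n = 8), below the 1124 to 1539 of low-dose LPS alone (n = 7), without overlap (log2 -1.59, adjusted p = 1.6e-18). At 72 h TGFb (667 ± 109 CPM, log2 -0.86, adjusted p = 0.0069) and the mix of 3 interleukins (642 ± 302, log2 -1.02, adjusted p = 0.003) also lowered it from 1208 CPM, the mix not so without replicate 3 (adjusted p = 0.079).

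Cd68, the lysosomal glycoprotein, was lower with LPS, P3C, polyIC, TNFa and IFNg at 24 h. Untreated cultures at 24 h held 2231 to 6463 CPM (median 3695, n = 40). LPS cultures held 596 to 2277 CPM (median 1374, n = 18), low-dose LPS cultures 693 to 1468 (median 971, n = 7) and P3C cultures 526 to 1507 (median 647, n = 6). The P3C and low-dose LPS cultures lay below every untreated culture, and the highest LPS culture reached just into the untreated range. Log2 changes were -1.57 with LPS (adjusted p = 3.6e-26), -1.90 at the lower dose (adjusted p = 5e-19) and -2.40 with P3C (5.28-fold, adjusted p = 3.7e-25). PolyIC left 2216 ± 753 CPM (log2 -0.90) and IFNg 2496 ± 531 (log2 -0.63), and TNFa 2539 (log2 -0.69, lost without shallow cultures, adjusted p = 0.099). None of the 38 stimuli at 24 h gave a higher Cd68 call, and IL4 cultures had a mean of 4719 CPM (log2 0.23, adjusted p = 0.41). At 72 h it was lower in 11 conditions and higher in 0, with LPS at 419 to 1602 CPM (median 984, n = 13, log2 -1.94, adjusted p = 4.8e-23). Low-dose LPS left 1101 to 2723 CPM at 72 h (median 2171, n = 11, log2 -0.81), and the 3 interleukins added to it brought it to 4288 ± 1715 CPM (log2 1.10, adjusted p = 0.0026). At 4 h LPS left 2887 ± 657 CPM, not called.

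Scarb1, the receptor for high-density lipoprotein, was 28.5 to 132 CPM untreated at 24 h (median 59.8, n = 40). P3C cultures held 0.416 to 23.8 CPM (median 15.1, n = 6) and did not overlap it (log2 -2.39, adjusted p = 1.2e-14). LPS gave 12.5 to 67 CPM (median 22.3, log2 -1.27, adjusted p = 1.2e-10), with overlap. IFNb (31.9 CPM, log2 -1.02) and polyIC (32.9, log2 -1.0) were also called lower, and the TNFa call (log2 -0.78) was lost with plate in the fit (adjusted p = 0.16). At 72 h P3C cultures held 46.3 to 68.3 CPM (median 60, n = 6, log2 0.52, adjusted p = 0.76), inside the untreated 5.05 to 103. At 4 h LPS with ATP held 6.25 to 18.1 CPM (median 13.1, n = 6) and LPS alone 23.5 to 49.9 (median 28.4, n = 7), which did not overlap (log2 -1.34, adjusted p = 0.0069). The 4 h fall with LPS alone (log2 -0.86, adjusted p = 0.0023) was lost against 4 h conditions without LPS (log2 -0.43, adjusted p = 0.15) and with trimmed-mean scaling (log2 -0.22, adjusted p = 0.49).

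Olr1, the oxidised-lipoprotein receptor LOX-1, was highest at 4 h. Untreated cultures at 24 h were at 0 in 17 of 40 and at most 4.71 CPM. After 4 h of LPS the 7 cultures held 6.32, 12.6, 14.8, 19.3, 97.2, 102 and 141 CPM (log2 4.53, adjusted p = 2.1e-17, or 9e-17 with no filter on low values). All were above every untreated culture at 24 h. LPS with norepinephrine held 29.2 to 89.3 CPM (median 59.3, n = 8, log2 5.30, adjusted p = 9.5e-23), the highest mean of any condition at 58.7 ± 19.9. At 4 h without LPS, ATP, norepinephrine and nicotine gave means of 3.85, 3.01 and 1.28 CPM. At 24 h LPS left 0 to 19.2 CPM (median 4.16, n = 18, log2 1.71, adjusted p = 3.2e-13), TNFa 0 to 11.3 (median 3.38, log2 1.48) and TGFb 0 to 13 (median 2.87, log2 1.42, adjusted p = 0.00042), each overlapping the untreated range. Low-dose LPS at 24 h left 0 to 6.28 CPM (n = 7, log2 0.89, limma adjusted p = 0.04 with no filter on low values), with overlap as well. At 72 h LPS was back at a mean of 0.509 CPM. The 3 TNFa cultures held 0, 0 and 163 CPM, and the call at 72 h (log2 2.38) rests on the last of them, the value without it being -0.07.

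**Figure D3:**
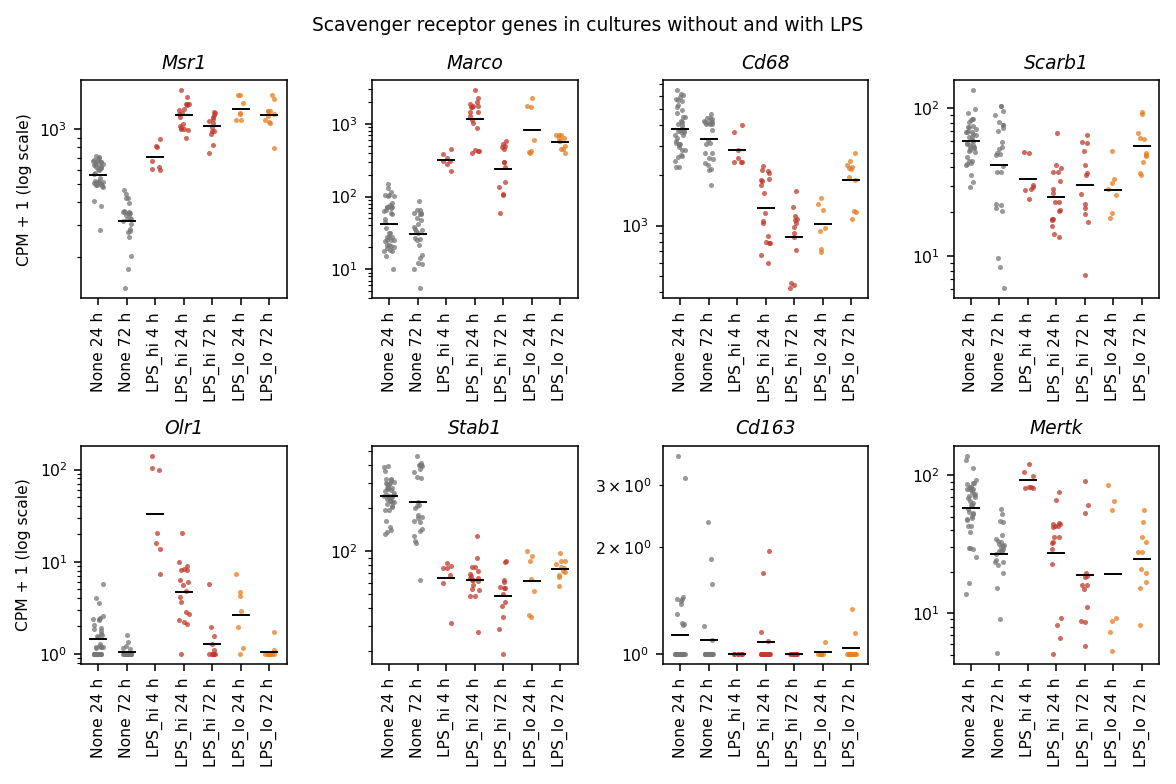
Receptor levels in untreated cultures at 24 and 72 h, with LPS at 4, 24 and 72 h and with low-dose LPS at 24 and 72 h, CPM + 1 on a log axis; points are cultures and bars are means of log2 values. Olr1 is high at 4 h and near the untreated level at 72 h, Marco is high at all 3 times, and Cd68 is lower from 24 h on.

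Stab1, the clearance receptor stabilin-1, was the receptor most often lower. Untreated cultures at 24 h held 130.0 to 391 CPM (median 243, n = 40). IFNg gave 37 to 61.3 CPM (median 48.3, n = 9, log2 -2.34, adjusted p = 1.7e-26), LPS 26.4 to 127 (median 62.9, n = 18, log2 -1.94, adjusted p = 1.4e-30) and MPP, a mitochondrial toxin, 47.9 to 84.8 (median 69.2, log2 -1.82, adjusted p = 1.5e-14). None of these cultures overlapped the untreated ones. IFNb (48.7 to 107 CPM, median 89.4, n = 10, log2 -1.63) and IFNa (67.4 to 114, median 93.9, n = 8, log2 -1.40) were also below all untreated cultures. P3C (log2 -1.46), polyIC (-1.40) and IL4 (-1.35) were called too. The calls of palmitic acid, s100B, dopamine and Valproic Acid were lost with plate in the fit, and that of IL13 with library pool (adjusted p = 0.057). At 72 h Stab1 was lower in 14 conditions, with IFNg at 14.5 to 137 CPM (median 32.2, n = 6, log2 -2.58, adjusted p = 8.2e-17) and LPS at 18.2 to 84.3 (median 54.2, log2 -2.18). GABA (391 to 551 CPM, median 447, n = 8, log2 1.06, adjusted p = 0.0015) and norepinephrine (361 to 544, median 445, n = 6, log2 1.02, adjusted p = 0.031) were higher, inside or above the untreated 61.9 to 463 CPM. Both calls were lost with library pool in the fit (log2 0.84 with adjusted p = 0.068, and log2 0.83 with adjusted p = 0.29). LPS had lowered it by 4 h, to 30.8 to 82.2 CPM (median 74.9, n = 7, log2 -1.90, adjusted p = 6.7e-16).

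Mertk, the receptor for apoptotic cells, was 12.7 to 138 CPM untreated at 24 h (median 63.2, n = 40). Low-dose LPS cultures held 4.36, 6.34, 7.77, 8.21, 55.1, 63.7 and 83.6 CPM, a split into low and near-untreated values (log2 -1.59, adjusted p = 2.8e-05). LPS gave 4.06 to 74.4 (median 34.9, n = 18, log2 -1.08, adjusted p = 2.4e-05), overlapping the untreated range. Nicotine (1000 uM) gave the 1 higher call of Mertk at 24 h. At 4 h its 8 cultures held 113, 123, 139.6, 142, 156, 186, 204 and 216 CPM, with 6 of 8 above the untreated range (log2 1.44, adjusted p = 2.3e-05), and with LPS 90.2 to 155 (median 148, n = 8, log2 1.27). At 24 h nicotine gave 78.3, 83.6, 88.6, 99.6, 105, 111, 235 and 273 CPM (log2 1.06, adjusted p = 0.026), all above the untreated median but with overlap. LPS alone at 4 h gave 79.7 to 120.0 CPM (median 82, n = 7, log2 0.66), lost with plate in the fit (adjusted p = 0.1) and against 4 h conditions without LPS (adjusted p = 0.2). At 72 h P3C held 8.05 to 17.7 CPM (median 9.93, n = 6, log2 -1.22), inside the untreated 4.13 to 56.4, and TNFa 49.5, 89.4 and 101 CPM (log2 1.52, adjusted p = 0.0066), lost with pool (adjusted p = 0.12). Low-dose LPS with IL10 had 78.1 CPM against 27 alone (log2 1.41), lost with plate (adjusted p = 0.16).

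Cd163 was near 0 in culture: untreated cultures at 24 h were at 0 in 29 of 40 and at most 2.64 CPM. The called conditions were TNFa with PGE2 at 72 h (0 in 4 of 8 cultures, at most 5.37 CPM, mean 1.95, log2 0.95, adjusted p = 0.0021) and TNFa (0, 0 and 51.7 CPM), the last being the culture that carried Olr1 at 163.

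Dose and related lipids were compared directly. At 24 h low-dose LPS and LPS differed in 0 of 7 receptors by limma (0.561% of all genes called, 1 receptor with an unadjusted p under 0.05), and at 72 h in 1 of 8 (2.66% of all genes called, where trimmed-mean scaling moved the median of all genes from 0.19 to 0.05 and the share of calls that were higher from 84.2% to 52.4%). That 1 was Cd68, which was higher at the lower dose by log2 1.13 (95% interval 0.73 to 1.52, adjusted p = 2.6e-05), 1949 against 924 CPM. Marco differed by log2 1.22 there (interval 0.39 to 2.05, adjusted p = 0.1). Palmitic (PA), oleic (OA) and linoleic (LiA) acids, at 150 uM each, are a saturated, a monounsaturated and a polyunsaturated chain. In 6 pairs over both times none of 45 receptor values was called by limma (0.0167% of all genes called, 5 unadjusted p values under 0.05). At 24 h PA was below OA for Stab1 by log2 -0.84 (interval -1.39 to -0.28, adjusted p = 0.42) and for Msr1 by -0.33 (-0.64 to -0.02, adjusted p = 0.67), and above it for Olr1 by 0.88 (0.08 to 1.68, adjusted p = 0.66). The adjusted values do not separate them, and the intervals allow differences of these sizes.

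Without a stimulus, 72 h and 24 h cultures differed in 2 of 6 receptors, both lower, with 24.3% of all genes called. Msr1 was 571 and 325 CPM (log2 -0.84, adjusted p = 2.6e-11) and Mertk 63.4 and 28.9 CPM (log2 -1.10, adjusted p = 2.8e-06). All 72 h cultures came from 1 cell lot, and within it the Mertk difference was -0.18 (adjusted p = 0.81), while Msr1 was still called. The stimulus effect at 72 h minus that at 24 h was called for 22 of 200 receptor and stimulus pairs (3.55% of all genes and stimuli called), and for 21 of them with plate in the fit. Because the 72 h cultures came from 1 lot, cell lot may differ along with time, and its part in these differences was not tested. For Marco the rise with LPS was smaller at 72 h (difference log2 -1.81, adjusted p = 0.0013). With polyIC it went from log2 1.89 at 24 h to -0.15 at 72 h (difference -2.04), and with TNFa from 4.17 to -0.04 (-4.22). The polyIC value at 24 h includes the culture at 1789.6 CPM, and the TNFa cultures at 72 h stood apart as above. With IFNa Marco went from log2 -0.34 at 24 h to -2.47 at 72 h (difference -2.14). Msr1 differences were 0.63 with LPS, 0.71 with low-dose LPS and 1.05 with PA. Scarb1 differences were 2.91 with P3C (adjusted p = 1.5e-05), 1.87 with PA, 1.78 with s100B and 1.51 with low-dose LPS.

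**Figure D4:**
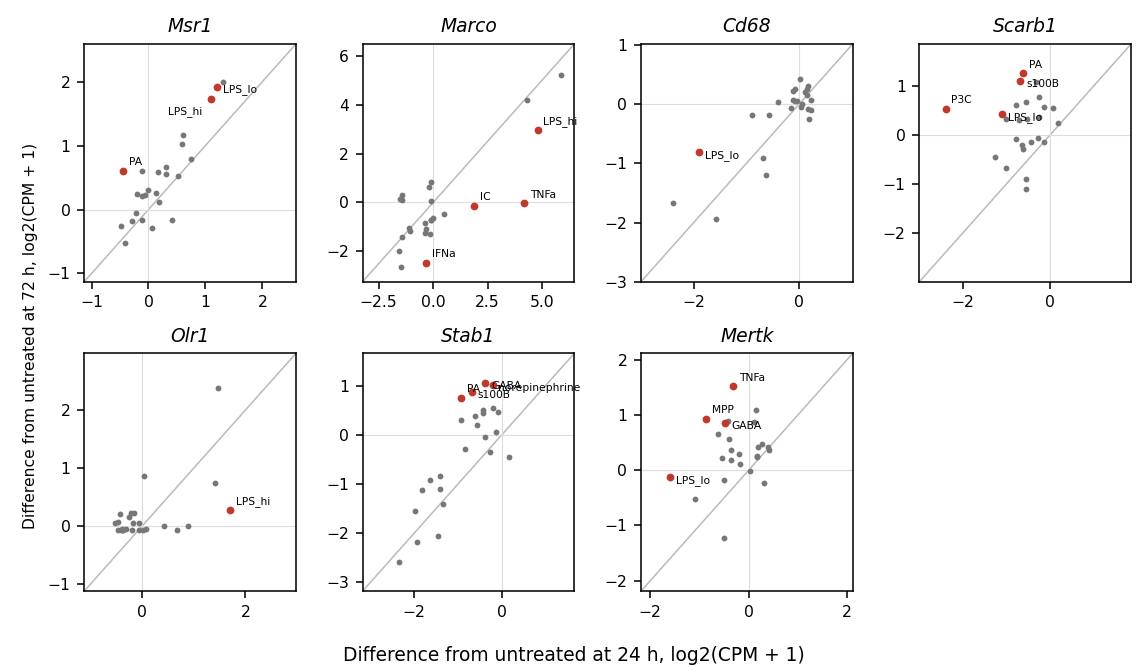
Effect of each stimulus at 24 h (x axis) and at 72 h (y axis) for 7 receptors, as differences of mean log2(CPM + 1) from untreated cultures of the same time; red points are pairs whose difference was called. The Scarb1 points of P3C and PA lie high above their 24 h effect, and Marco with TNFa lies far below its own.

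In the mice, LPS against PBS gave calls for 3 of 5 receptors tested (Msr1 higher, Stab1 and Scarb1 lower, 18.1% of all genes called). Msr1 passed the filter on low values only through the mice given LPS, so its place among the 5 is conditioned on its rise. Msr1 was 2.77, 3.61, 4.32 and 4.93 CPM in mice given PBS and 20.8, 21.3, 24.9 and 32.6 in mice given LPS (5.27-fold, log2 2.40, adjusted p = 3.8e-06, or 0.00013 with no filter), with no overlap. Stab1 was 197, 248, 289 and 298 CPM with PBS and 107, 127, 135 and 141 with LPS (log2 -1.0, adjusted p = 0.00026), and Scarb1 36.9, 40, 40.9 and 50.1 with PBS and 22, 23.1, 27.9 and 28 with LPS (log2 -0.71, adjusted p = 0.0068). Neither overlapped. The Scarb1 change was under 1.5-fold after trimmed-mean scaling (log2 -0.54, adjusted p = 0.026).

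Cd68 was lower with LPS in culture at 24 h, but was not called there at 4 h, the time at which the mice were collected. In the mice Cd68 was 805, 869, 957 and 1114 CPM with PBS and 697, 835, 915 and 1142 with LPS (log2 -0.07, adjusted p = 0.76), with full overlap. Mertk was 176 to 209 and 135 to 190.3 CPM (log2 -0.29, adjusted p = 0.14). Olr1, Cd163 and Marco did not pass the filter on low values and have no adjusted p. Olr1 was 0.196, 0.396, 0.577 and 0.58 CPM with PBS and 1.29, 1.48, 2.43 and 6.91 with LPS (exact 2-sided permutation p = 0.029, where the smallest possible for 4 against 4 is 0.0286). Cd163 was 4.26, 6.01, 8.15 and 12.6 with PBS and 0.919, 2.02, 3.53 and 4.04 with LPS (the same p), and Marco was 0 in all 4 PBS mice and at most 0.546 with LPS (exact permutation p = 0.43). The summed markers of monocytes were 26.6 to 60.8 CPM with PBS and 62.4 to 119.6 with LPS, those of neutrophils 92.3 to 171 and 191 to 352, those of perivascular macrophages 71.6 to 138 and 74.8 to 96.8, and those of microglia 46202 to 58164 and 48775 to 54341. Their part in the Msr1, Olr1 and Cd163 values was not tested.

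**Figure D5:**
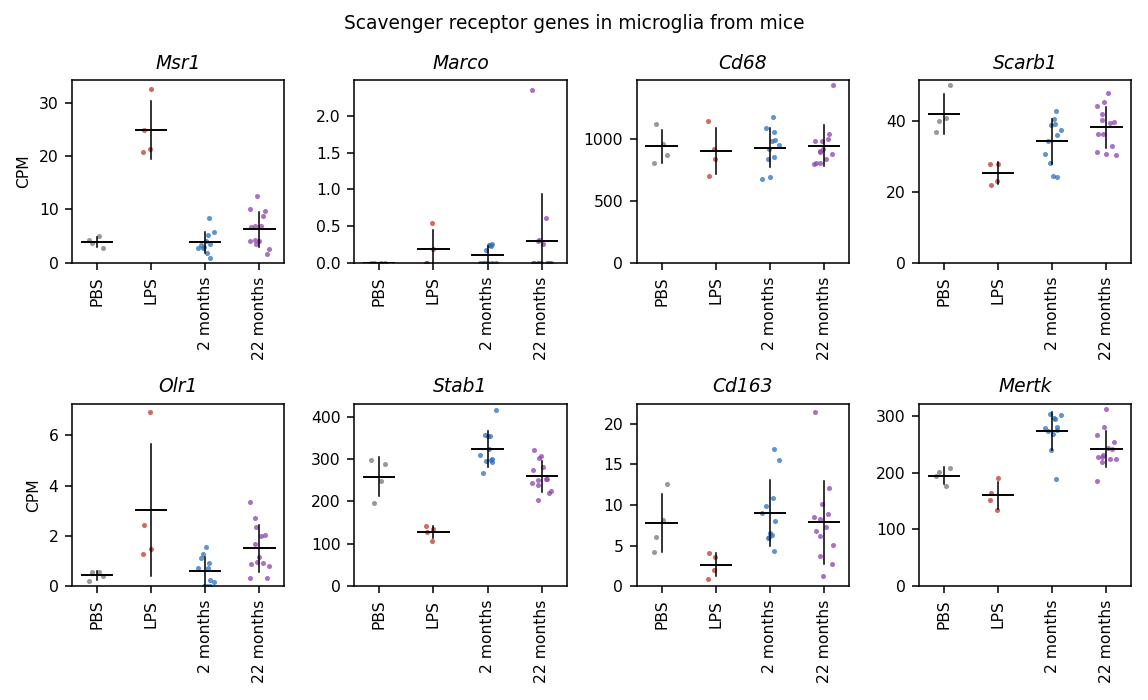
Receptor levels in the mice as CPM; points are mice, the bar is the mean and the line the SD. The 4 mice given LPS lie above the 4 given PBS for Msr1 and below them for Stab1 and Scarb1, and mice of 22 months overlap those of 2 months for each receptor.

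Mice of 22 and 2 months differed in 0 of 5 receptors by limma with experiment ID in the fit (3.97% of all genes called, 2 receptors with an unadjusted p under 0.05). The mice came under 2 experiment IDs, each holding both ages, which also differ in their ranges of library numbers. What else differs between them is not stated. Stab1 was 324 ± 42.2 CPM at 2 months (n = 11) and 259 ± 36 at 22 months (n = 13, log2 -0.33, adjusted p = 0.0046), under the 1.5-fold minimum. It was lower under both experiment IDs (329 to 227, and 321 to 273). Mertk was 273 ± 33.2 and 242 ± 31.8 CPM (log2 -0.18, adjusted p = 0.18), Scarb1 34.3 and 38.3 (log2 0.15, adjusted p = 0.38) and Cd68 926 and 942 (log2 0.02, adjusted p = 0.93). Cd163 was 9.02 ± 4.05 and 7.86 ± 5.08 CPM (log2 -0.32, adjusted p = 0.52). Cd68 had means of 762 and 1007 CPM under 1 experiment ID and 1020.4 and 914 under the other. Olr1 and Msr1, under the filter, were 0.607 and 1.5 CPM (permutation p = 0.0096) and 3.79 and 6.29 CPM (permutation p = 0.045), and Marco 0.103 and 0.294 CPM (permutation p = 0.46). Neutrophil markers summed to 173 to 1344 CPM at 2 months and 369 to 4568 at 22 months, and their part in these values was not tested.

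Other genes of the same functions were read from lists, and their counts stand beside the share of all genes called. With LPS at 24 h, where 34.7% of all genes were called, 2 of 14 other scavenger receptors were higher and 6 lower (median log2 -0.54). The endocytic receptors Lrp1 and Colec12 went from 209 to 31.6 and from 189 to 30.1 CPM, Cxcl16, a scavenger receptor and chemokine, from 138 to 441, and Cd44 from 262 to 432. Of 11 genes of apoptotic cell recognition 1 was higher and 9 lower (median -1.56), with the Mertk ligand Gas6 from 707 to 63.3 CPM, the integrin Itgb5 from 589.7 to 67.4 and the phosphatidylserine receptor Timd4 from 1.44 to 34.8. The untreated mean of Timd4 was under the 5 CPM of the filter, so its call may be conditioned on a rise. Of 12 sterol genes 2 were higher and 6 lower (median -0.89), with the nuclear receptors Pparg from 18.5 to 2.69 and Nr1h3 from 6.51 to 27.9 CPM, lysosomal acid lipase Lipa from 642 to 152 and Npc2 from 1855 to 3402. Of 12 lysosomal genes 0 were higher and 5 lower (median -0.46), with the protease Ctsd from 4774 to 1245. Of 8 heme and iron genes 2 were higher and 3 lower (median -0.02), with the iron exporter Slc40a1 from 171 to 16.5 CPM, Blvra from 66.5 to 33.4, Hmox1 from 575 to 1246 and Fth1 from 9968 to 19826.

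With the 3 interleukins added to low-dose LPS, where 3.72% of all genes were called, 2 of 13 other scavenger receptors were higher (Clec7a from 217 to 761 CPM and Cd36 from 680.0 to 1568) and 1 lower (Cxcl16 from 259 to 131). Of 11 recognition genes 3 were higher, with the bridging protein Mfge8 from 41.2 to 334 and Itgb3 from 0.633 to 44.8, of 12 sterol genes 1 was lower (the cholesterol exporter Abca1, 195 to 33.7), and of 12 lysosomal genes 3 were higher, with the protease Ctsl from 612 to 4551. The mean of Itgb3 with low-dose LPS alone was under the 5 CPM of the filter, so its call may be conditioned on a rise. Of 8 heme and iron genes 1 was higher (Ftl1, 33254 to 56397). In the same comparison 3 of 5 tested perivascular macrophage markers were higher and 0 lower (median log2 2.44), and the sum of the 7 was 196 to 452 CPM with low-dose LPS and 717 to 1369 with the interleukins, while the monocyte markers summed to 0 to 31.3 and 79.7 to 362. Lyve1, F13a1 and Cd209f had means under 1 CPM in both, as had the monocyte markers Ly6c2, Ccr2 and Plac8. Chil3 had a mean under 1 CPM with low-dose LPS alone. Of 4 tested monocyte markers 1 was higher and 0 lower. The part of cells with such markers in the values of Cd68, Marco, Msr1, Clec7a, Cd36 and Mfge8 was not tested.

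In mice given LPS, where 18.1% of all genes were called, 2 of 8 other scavenger receptors were higher (Cxcl16 from 47.8 to 166 CPM and Cd44 from 9.84 to 35.7) and 1 lower (Scarf2 from 15.3 to 9.16). Of 9 recognition genes 1 was lower (Itgav, 144 to 95.7), of 10 sterol genes 1 was higher, of 12 lysosomal genes 1 was lower (Tfeb, 28.8 to 12.2), and of 8 heme and iron genes 1 was higher (Fth1, 651 to 1278) and 1 lower (Slc40a1, 225 to 120.5). In aging mice, where 3.97% of all genes were called, 4 of 7 were higher and 0 lower, Clec7a going from 27.3 to 54.6 CPM and Cd44 from 11.8 to 32.2. Of 9 recognition genes 1 was higher (the Mertk relative Axl, 65.4 to 228) and of 10 sterol genes 2 were higher, with Apoe from 3603 to 8042, while 0 of 12 lysosomal and 0 of 8 heme and iron genes were called. In the aging comparison 4 of 5 monocyte markers (sums of 53.9 to 207 CPM at 2 months and 97.2 to 641 at 22 months) and 6 of 6 neutrophil markers (173 to 1344 and 369 to 4568 CPM) were higher as well, and their part in these values was not tested.

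Over the means of 97 culture conditions, the genes with the highest Pearson r to Marco were Fpr1 (0.93), Sod2 (0.91) and Fpr2 (0.90), and those to Cd68 were Gpnmb (0.92), Trem2 (0.90) and Epas1 (0.89). For Stab1 they were Sgsh, Arhgap18 and Man1c1 (0.82 each), for Msr1 Slfn1, Mlkl and Slfn4 (0.75 each) and for Olr1 Gm29371 (0.86), Adamts4 (0.86) and Ccdc8 (0.85). For Scarb1 they were Dnajc9 (0.74), Dgkz (0.70) and Cdca7l (0.70), for Mertk RP23-114F4.2 (0.71), Tanc1 (0.71) and 4930523C07Rik (0.70), and for Cd163 they included RP24-500I24.4 (0.65) and Gm13563 (0.60). Olr1 and Cd163 were near 0 in most conditions, and Spearman's rho was 0.50, 0.54 and 0.37 for the 3 genes of Olr1 and 0.53 and 0.17 for those named for Cd163. Among the receptors themselves r ranged from -0.79 (Marco and Cd68) to 0.59 (Cd68 and Stab1). The conditions share untreated cells, cell lots and library pools, so these r values describe likeness in this panel only.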

How the data were processed

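3′-end RNA sequencing covered 784 cultures of primary mouse microglia (98 conditions, 10 culture plates, 21 library pools, 3 cell lots) and microglia of 32 mice. Reads were quantified by the authors in Salmon 0.7.1 (Ensembl build 81), added up for each gene and deposited as CPM, reads per 1e6 mapped reads, which the paper calls TPM. The submitters' processing notes name build mm8, while gene positions here are those of GRCm38. The authors had discarded shallow cultures. Whole reads could not be recovered: 70.1% to 89.0% of low values of a culture, and 79.3% to 87.2% of a mouse, came within 0.1 of whole reads, and count tests were therefore left aside. The estimated median depth was 4.67 M in cultures and 4.08 M in mice. A value of a few CPM rests on few reads, and no interval was attached to single values.

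Groups came from the sample labels. Values were analysed as log2(CPM + 1), which understates the change of low genes, with limma 3.58.1 in R 4.3.3 (trend on), Benjamini-Hochberg adjustment over all genes of a comparison, an adjusted p of 0.05 and a minimum fold of 1.5. A gene was tested where 4 or more samples exceeded 5 CPM. The aging fit asked this of 11 or more mice and had experiment ID as a term. Cultures of a time point shared a fit. The 1 culture named LPS_hi but labelled with the lower dose stayed out of the comparisons. Other steps ran in Python (version 3.11.15; matplotlib 3.10.9, pandas 2.3.3, scipy 1.17.1, numpy 2.4.6), with 100000 resamples where a permutation test was not exact. On simulated data, 95% and 96% of genes changed 2-fold and 4-fold were recovered for LPS at 24 h (11237 genes), 59% and 97% for P3C at 24 h (11100) and 77% and 95% for LPS in mice (8716). The changed genes were drawn from well-expressed genes only, and both groups were given the spread of the reference group. The rates therefore do not cover genes near 0, such as Olr1 and Cd163, Msr1 in the mice, or a wider spread in treated wells. Plate and pool were not simulated.

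The 8 receptors and the lists of other genes were chosen with earlier results of these data known. The 8 receptors are described with up to 3 of the most correlated genes of each. Lists are given for 4 comparisons, with up to 2 called genes of the largest rise and 2 of the largest fall in each functional list. Some genes that meet these rules are not reported here. Alternatives were other pseudocounts, filters, folds and scalings, plate or pool in the fit, other tests, and samples left out.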

Additional observations from a re-analysis of the deposited data

Results flagged for a closer look

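Values of 1 gene in 1 group of 4 to 10 samples were tested 90 times, and in 8 of these 1 sample lay far from the others, where chance gives about 1 in 20. Msr1 was 1094 CPM in 1 GMCSF culture at 24 h, with the others at 1315 to 1515. Marco was 17.9 CPM in 1 culture of P3C with PGE2 at 72 h, with the others at 901 to 1251. Cd68 was 1507 CPM in 1 P3C culture at 24 h (others 526 to 675) and 593 CPM in 1 polyIC culture at 24 h (others 1952 to 3026). Scarb1 was 0.416 CPM in 1 P3C culture at 24 h (others 10.2 to 23.8), and Olr1 was 45.9 CPM in 1 culture of TNFa, P3C and PGE2 at 72 h (others 0 to 3.58). Stab1 was 30.8 CPM in 1 LPS culture at 4 h (others 58.7 to 82.2), and Mertk was 90.2 CPM in 1 culture of LPS with nicotine at 4 h (others 132 to 155).

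The effect of a stimulus at 72 h minus its effect at 24 h passed the test of that difference, with the sizes below on the log2 scale. All 72 h cultures came from 1 cell lot, and the part of lot in these differences was not tested. Mertk gave 1.33 with GABA (lost with culture plate in the fit, at 0.70), 1.46 with low-dose LPS, 1.79 with MPP and 1.83 with TNFa. Stab1 gave 1.43 with GABA, 1.24 with norepinephrine, 1.68 with palmitic acid and 1.56 with s100B. Marco gave -2.04 with polyIC, -2.14 with IFNa, -1.81 with LPS and -4.22 with TNFa. Msr1 gave 0.63 with LPS, 0.71 with low-dose LPS and 1.05 with palmitic acid. Scarb1 gave 1.51 with low-dose LPS, 2.91 with P3C, 1.87 with palmitic acid and 1.78 with s100B, Olr1 gave -1.43 with LPS, and Cd68 gave 1.09 with low-dose LPS. Cd163 gave 1.52 with TNFa (adjusted p = 0.00081), which rests on 1 culture at 51.7 CPM.

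The 72 h culture named LPS_hi whose label gives the lower dose was in no comparison. It held 330.5 CPM of Marco, where untreated cultures held 4.45 to 86, and 703 CPM of Msr1, where untreated cultures held 134 to 462.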

How the results depend on the processing

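No paired analysis was possible because the labels give no replicate numbers that groups share. Single calls kept under each alternative numbered 142 of 158 with culture plate in the fit, 135 of 158 with library pool, 149 of 163 with trimmed-mean scaling, 160 of 163 with a pseudocount of 0.5, 157 of 163 with one of 5, 157 of 163 with no filter on low values and 139 of 156 without cultures under 2 M mapped reads. Against 4 h conditions without LPS, 16 of 19 were kept (17 of 19 with plate). The Olr1 call with TNFa at 72 h reversed, to -0.08 without shallow cultures, and ran from -0.07 (without replicate 2) to 3.61 as each replicate was left out. The exact rank-sum test under Bonferroni adjustment gave 26 calls in place of 57 at 24 h, 17 in place of 26 at 4 h, 21 in place of 61 at 72 h, 0 in place of 13 for added agents and 0 in place of 1 for dose, and only 139 of 158 calls had group sizes that could pass it. Library pool in the fit gave 20 calls for added agents, and 2 for dose, as did plate and a pseudocount of 5. A minimum fold of 2 left 1 call in untreated cultures and 1 in mice given LPS, the shared cell lot left 1 in untreated cultures, and no minimum fold added 1 in aging. Of the 24 most correlated genes 8 were kept with Spearman's rho and 8 with plate means removed. Leaving out 1 replicate was run for groups of at most 5 samples and, over 88 pairs of a call and a left-out replicate, the call was kept in 70, lost in 17 and reversed in 1. It gave 23 to 26 calls at 4 h (ATP cultures), 59 to 61 at 72 h (CRH, IFNb, IL4, TGFb and TNFa cultures), 11 to 13 for added agents (IL4, IL10, IL13, their mix and norepinephrine with low-dose LPS) and 3 to 3 in mice given LPS, and the causes were not tested. Pool could not be fitted for untreated times, since 0 pools hold both.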
